A study of Mus musculus with 40 samples.

Results

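The genes described here are 8 mouse genes of glucose uptake, glycolysis and the response to low oxygen, measured by RNA-seq of the aorta. They are Slc2a1, Hk2, Pfkfb3, Ldha, Pgk1, Vegfa, Adm and Hif1a, chosen by symbol from the name column of 2 tables of normalized counts. All 8 were listed in both tables, among 17402 genes in the first and 15399 in the second, of which 14424 and 13741 were protein-coding and were tested.

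The study asked how calcineurin, a calcium-dependent phosphatase, shapes the response of the mouse aorta to angiotensin II (Ang-II), a peptide that raises blood pressure. In the first experiment, by the labels, Cn-Ctl males (CnB1-flox;Myh11-CreERT2-neg) were set against SM-Cn-/- males (CnB1-flox;Myh11-CreERT2-pos), in which a Cre driven by the smooth muscle promoter Myh11 removes the regulatory subunit CnB1. The labels give the floxed allele for both genotypes, but the study's text also counts Cre-carrying mice without it among its Cn-Ctl controls, and which mice made up each pool is not given. Both genotypes received tamoxifen (1 mg a day for 5 days, at 10 to 12 weeks of age) and were used 6 weeks later, sampled untreated or at 2, 6 or 24 h of an Ang-II infusion by minipump (1 µg/kg/min). In the second experiment, C57BL/6J males of 10 to 12 weeks (WT) were set against males given cyclosporin A (CsA), a drug that blocks calcineurin's phosphatase, from a minipump over 5 days (5 mg/kg a day). Both arms were sampled without Ang-II and at 2 and 24 h of it. The WT mice carried no pump before Ang-II, so CsA and its pump cannot be told apart. By the study's methods, control mice had the surgery with no pump implanted, so Ang-II and its pump cannot be told apart either. Each library was a pool of 3 aortas stripped of adventitia and perivascular tissue, and each group had 3 libraries except untreated Cn-Ctl and Cn-Ctl at 24 h, with 2 each (22 and 18 libraries in all). The study discarded 1 untreated Cn-Ctl replicate because it lay far from the others in a principal component analysis. The Cn-Ctl baseline was therefore selected after the data were seen. No reason is given for the missing library at 24 h. Ang-II-treated Cn-Ctl, WT and CsA mice were kept only with a systolic pressure above 130 mmHg, a threshold not applied to SM-Cn-/- mice. The study also removed SM-Cn-/- mice in which CnB1 deletion could not be shown, by PCR of a piece of aorta. It likewise removed CsA mice in which a block of NFAT dephosphorylation by calcineurin could not be shown in the thymus.

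Glucose enters most cells through the transporter GLUT1, made from Slc2a1, and hexokinase (Hk2) traps it by phosphorylation. Pfkfb3 makes the allosteric activator of the committed step of glycolysis, Pgk1 catalyses an ATP-yielding step further down, and Ldha turns pyruvate into lactate. Hif1a encodes the subunit of the hypoxia-inducible factor that is degraded when oxygen is present, so that its activity is set largely at the protein, and Vegfa and Adm, along with the genes of glycolysis, are well-known targets of this factor.

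The deposited values are normalized counts on a scale close to RPM, and every value could be turned back into whole reads (2728007.0 to 10250178.0 reads per library in the first experiment and 18976266.0 to 38900009.0 in the second). The 8 genes had 17 to 2626 reads per library in the first experiment and 305 to 17596 in the second. Values are compared for one gene between libraries, never between genes, since they are not scaled for length. Ppp3r1, the gene of CnB1, spanned 45.7 to 134 over the Cn-Ctl libraries and 41.8 to 118 over the SM-Cn-/- libraries, with no called difference (log2 difference averaged over times -0.23 ± 0.17 (SE, adjusted p = 0.47)), so these whole-gene counts did not check the genotype. The labels do not give which part of the gene is deleted, and the reason for the missing difference was not tested. Rcan1, a calcineurin-responsive gene, lay between 368 and 404 in Cn-Ctl and between 31.7 and 55.4 in SM-Cn-/- at 2 h, a log2 difference of -3.13 ± 0.33 (SE, adjusted p = 3.28e-06). In the second experiment, of the 2 genes Ppp3r1 and Rcan1, 1 was called higher at 2 h of Ang-II in WT and 1 in CsA. With CsA 1 of the 2 was called lower than in WT at 2 h and 1 at 24 h. The smooth muscle markers (Myh11, Acta2, Tagln, Cnn1, Smtn) were abundant in every library (summed signal 15675 to 48416), but markers of fat, endothelium and macrophages were also present. Throughout, a log2 difference is on the scale log2(value + 0.5), adjusted p is from limma with Benjamini-Hochberg adjustment over all protein-coding genes of the table, and a gene is called at an adjusted p under 0.05.

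The proximal promoters of 4 members are shown because these 4 genes of glucose uptake and glycolysis rose with Ang-II in at least 1 control arm. They are RefSeq sequences of GRCm38.p6, 250 bases before to 50 after a listed start site, written 5′ to 3′ along the gene. Matches to the core of the hypoxia response element (ACGTG or GCGTG, either strand, overlapping matches joined) are in capitals. The windows are chr4:119108495-119108794 for Slc2a1, chr6:82774405-82774704 for Hk2, chr7:46845554-46845853 for Ldha and chrX:106186850-106187149 for Pgk1.
Slc2a1: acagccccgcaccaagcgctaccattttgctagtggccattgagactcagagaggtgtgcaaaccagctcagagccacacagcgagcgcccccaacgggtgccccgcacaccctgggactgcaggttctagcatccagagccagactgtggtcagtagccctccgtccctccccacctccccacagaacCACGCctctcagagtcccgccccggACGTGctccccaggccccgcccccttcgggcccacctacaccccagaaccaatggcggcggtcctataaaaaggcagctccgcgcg
Hk2: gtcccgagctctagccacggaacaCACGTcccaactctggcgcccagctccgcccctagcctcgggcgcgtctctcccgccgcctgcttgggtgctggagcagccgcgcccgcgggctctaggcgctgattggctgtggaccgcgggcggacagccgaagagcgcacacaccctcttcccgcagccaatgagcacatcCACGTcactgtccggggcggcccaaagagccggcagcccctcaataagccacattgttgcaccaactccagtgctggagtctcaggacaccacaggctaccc
Ldha: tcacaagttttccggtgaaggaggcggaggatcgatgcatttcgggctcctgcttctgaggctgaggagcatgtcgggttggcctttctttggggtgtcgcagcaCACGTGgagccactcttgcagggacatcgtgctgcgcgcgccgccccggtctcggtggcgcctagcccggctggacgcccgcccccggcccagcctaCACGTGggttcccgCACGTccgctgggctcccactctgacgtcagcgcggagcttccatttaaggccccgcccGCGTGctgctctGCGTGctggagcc
Pgk1: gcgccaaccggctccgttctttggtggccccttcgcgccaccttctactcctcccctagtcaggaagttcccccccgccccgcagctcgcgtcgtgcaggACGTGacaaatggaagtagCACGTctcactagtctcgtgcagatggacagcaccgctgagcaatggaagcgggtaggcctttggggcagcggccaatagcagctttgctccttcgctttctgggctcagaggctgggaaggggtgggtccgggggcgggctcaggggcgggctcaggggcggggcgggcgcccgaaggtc
The Slc2a1, Hk2 and Pgk1 windows each held 2 such stretches, and this Ldha window held 5. It lies inside the annotated span of Ldha and is the first of 2 windows listed for that gene, and the other held 2. The table has 11 windows for the 8 members, since Pfkfb3, Ldha and Vegfa have 2 start sites each, and 10 of the 11 held the core at least once and 9 held 2 or more stretches. Over all 32851 windows of this length, 43.8% held the core and 17.3% held 2 or more stretches. GGAAA, the core bound by NFAT factors, which calcineurin dephosphorylates, was found in 7 of the 11 windows (of Pfkfb3, Ldha, Vegfa, Adm and Hif1a) and in 61.3% of all windows. A match to a motif this short describes the letters and is no evidence of binding.

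Slc2a1 and Hk2, at the entry to glycolysis, rose within 2 h of Ang-II in Cn-Ctl and WT aortas. In SM-Cn-/- aortas neither passed the test at 2 h. Under CsA both were called higher at 2 h, but each call was lost in several fits that left out 1 library. For neither gene did a difference between responses at 2 h pass with limma, by genotype or by CsA. Slc2a1 (GLUT1, ENSMUSG00000028645, chr4:119108711-119137983, plus strand of GRCm38) stood at 27.0 and 18.5 in untreated Cn-Ctl libraries and at 65.5, 72.4 and 42.6 after 2 h of Ang-II. It stood at 44.4, 58.5 and 46.2 at 6 h and 63.6 and 45.7 at 24 h. Every Ang-II-treated Cn-Ctl library was above both untreated ones. The log2 difference from untreated was 1.37 ± 0.29 (SE, adjusted p = 0.00364) at 2 h, which is 2.59-fold. It was 1.12 ± 0.29 (SE, adjusted p = 0.0256) at 6 h and 1.25 ± 0.31 (SE, adjusted p = 0.0194) at 24 h. With 2 untreated libraries these calls were fragile. The 2 h call was lost without untreated replicate 3 (adjusted p = 0.13), the 6 h call without either untreated library or 6 h replicate 2 (up to 0.359), and the 24 h call without untreated replicate 3 or either 24 h library (up to 0.214).

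In SM-Cn-/- aortas Slc2a1 measured 24.6, 24.1 and 21.4 untreated and 23.3, 25.5 and 41.9 at 2 h, so that 2 of the 3 treated libraries lay within or just above the untreated range. It measured 39.0, 40.3 and 23.4 at 6 h and 37.3, 37.3 and 35.5 at 24 h. None of the 3 times passed the test, with log2 differences of 0.32 (95% interval -0.21 to 0.85, adjusted p = 0.607) at 2 h, 0.50 (95% interval -0.03 to 1.03, adjusted p = 0.333) at 6 h and 0.64 (95% interval 0.11 to 1.17, adjusted p = 0.301) at 24 h. Untreated, the genotypes did not differ detectably, at 0.06 (95% interval -0.53 to 0.65, adjusted p = 0.995). At 2 h the SM-Cn-/- level was lower, with a log2 difference of -0.996 ± 0.26 (SE, adjusted p = 0.0283), 0.501 times the Cn-Ctl level. No library of one genotype reached the range of the other, although the closest of each were 42.6 and 41.9. That call held in 2 of the 6 fits that left out 1 library (without SM-Cn-/- replicate 3 or Cn-Ctl replicate 3 at 2 h), and the adjusted p reached 0.166 in the others. The test of the response itself, the genotype by Ang-II interaction at 2 h, gave -1.05 (95% interval -1.85 to -0.26, adjusted p = 0.39) and did not pass. Averaged over untreated, 2, 6 and 24 h, Slc2a1 was lower in SM-Cn-/-, at -0.51 ± 0.14 (SE, adjusted p = 0.0152), a call kept in 21 of 22 fits that left out 1 library and lost only without untreated Cn-Ctl replicate 2 (adjusted p = 0.0626). The summed smooth muscle markers at 2 h were 34802, 32762 and 26758 in Cn-Ctl and 25621, 24589 and 30834 in SM-Cn-/- libraries, in the order in which Slc2a1 is given. In each genotype Slc2a1 stood apart in the 2 h library where that sum did, low in Cn-Ctl replicate 3 and high in SM-Cn-/- replicate 3. Pearson's r of log2 Slc2a1 with the log2 sum was 0.62 and 0.74 over the 18 libraries of the second and the 22 of the first experiment, and the part of these markers in the Slc2a1 results was not tested.

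**Figure D1:**
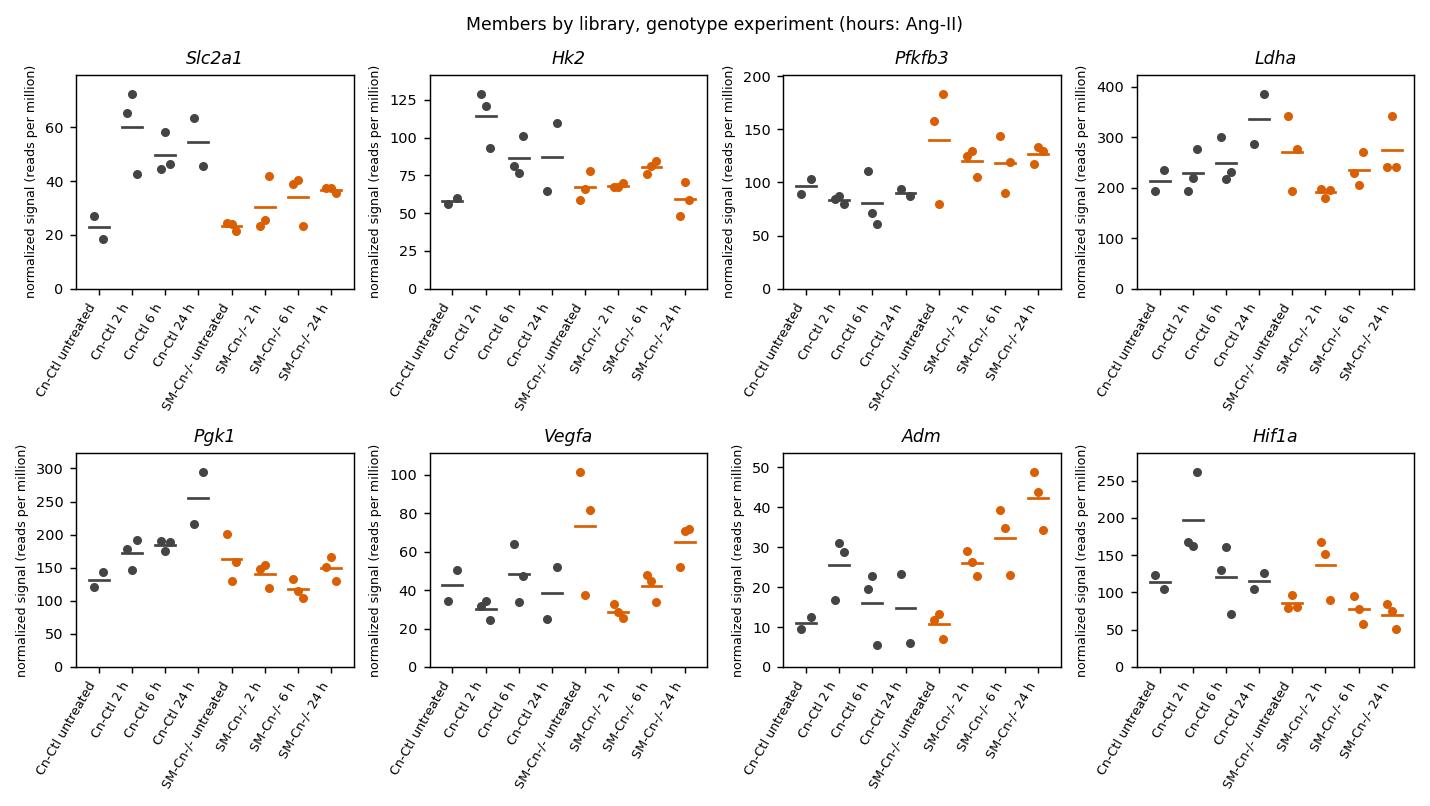
Normalized signal (close to RPM) of the 8 genes in each of the 22 libraries of the genotype experiment, Cn-Ctl in grey and SM-Cn-/- in orange, by hours of Ang-II, where a point is a library and a line a group mean. Slc2a1 and Hk2 at 2 h stand at 65.5, 72.4 and 42.6 and 129, 121 and 93.5 in Cn-Ctl, above the SM-Cn-/- libraries, while Adm at 24 h stands higher in SM-Cn-/-.

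With CsA, Slc2a1 rose at 2 h as it did in WT. Slc2a1 stood at 30.6, 36.2 and 41.6 in untreated WT libraries, 72.8, 55.0 and 66.6 at 2 h and 56.0, 65.2 and 38.4 at 24 h. In CsA libraries it stood at 31.9, 33.0 and 25.6 untreated, 37.1, 55.6 and 49.6 at 2 h and 34.0, 33.4 and 30.6 at 24 h. The WT and CsA libraries overlapped when untreated and at 2 h but not at 24 h. Ang-II raised Slc2a1 at 2 h in WT by 0.83 ± 0.19 (SE, adjusted p = 0.00403), 1.78-fold, and in CsA by 0.63 ± 0.19 (SE, adjusted p = 0.0249), 1.55-fold. The test of a difference between these 2 responses gave -0.20 (95% interval -0.76 to 0.35, adjusted p = 0.759). The CsA call was lost in 3 of 6 fits that left out 1 library (CsA untreated replicate 3, CsA 2 h replicate 2 or 3, adjusted p up to 0.12). At 24 h the WT difference was 0.53 ± 0.19 (SE, adjusted p = 0.0357), with an overlap between the groups and the call lost without WT untreated replicate 1 or 2 or WT 24 h replicate 1 or 2 (up to 0.184), and the CsA difference was 0.12 (95% interval -0.27 to 0.51, adjusted p = 0.714). CsA libraries were lower than WT at 24 h, at -0.66 ± 0.19 (SE, adjusted p = 0.0472), a call kept only without WT 24 h replicate 3 (up to 0.238 in the other 5 fits that left out 1 library). Averaged over the 3 times CsA was lower, at -0.46 ± 0.11 (SE, adjusted p = 0.00523), 0.728 times the WT level, and this held in all 18 fits that left out 1 library.

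Hk2, the hexokinase isoform of muscle and fat (ENSMUSG00000000628, chr6:82725025-82774454, minus strand), also rose early. It measured 55.9 and 59.8 in untreated Cn-Ctl libraries and 129, 121 and 93.5 at 2 h, then 81.5, 76.9 and 101 at 6 h and 64.6 and 109 at 24 h. In SM-Cn-/- it measured 58.9, 66.2 and 77.8 untreated, 67.0, 67.6 and 70.0 at 2 h, 76.2, 81.3 and 84.5 at 6 h and 48.3, 70.7 and 58.8 at 24 h. All 3 Cn-Ctl libraries at 2 h were above every SM-Cn-/- library of any time. The 2 h difference was 0.97 ± 0.21 (SE, adjusted p = 0.0062) in Cn-Ctl, 1.95-fold, and 0.02 (95% interval -0.38 to 0.42, adjusted p = 0.976) in SM-Cn-/-. The Cn-Ctl call was lost without either of the untreated libraries (adjusted p up to 0.0869). At 2 h SM-Cn-/- was lower, at -0.73 ± 0.19 (SE, adjusted p = 0.0323), a call kept only without Cn-Ctl 2 h replicate 3 among the 6 fits that left out 1 library (up to 0.194 in the others). The interaction at 2 h was -0.94 (95% interval -1.54 to -0.35, adjusted p = 0.238) and did not pass. After quantile normalization or without the intensity trend, neither Slc2a1 nor Hk2 was called between the genotypes at 2 h, and after quantile normalization Hk2 was not called in Cn-Ctl at 2 h.

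In the second experiment Hk2 stood at 43.5, 50.1 and 46.6 in untreated WT libraries, 111, 105 and 120.3 at 2 h and 74.0, 72.5 and 62.3 at 24 h. With CsA it stood at 82.8, 78.3 and 71.0 untreated, 118, 104 and 85.0 at 2 h and 57.7, 64.2 and 79.6 at 24 h. The untreated CsA libraries were all above the untreated WT ones, while the arms overlapped at 2 h and at 24 h. Ang-II raised Hk2 in WT by 1.25 ± 0.13 (SE, adjusted p = 5.06e-06) at 2 h, 2.39-fold, and by 0.57 ± 0.13 (SE, adjusted p = 0.00255) at 24 h. The fall from 2 h to 24 h also passed, at -0.69 ± 0.13 (SE, adjusted p = 0.000626) in WT and -0.60 ± 0.13 (SE, adjusted p = 0.00461) in CsA. In CsA the 2 h rise was 0.39 ± 0.13 (SE, adjusted p = 0.0399), 1.31-fold, a call kept only without CsA 2 h replicate 3 among the 6 fits that left out 1 library (up to 0.14 in the others). That call was also lost after quantile normalization, without the intensity trend, with only the groups compared and with a replicate block. Untreated Hk2 was higher with CsA by 0.72 ± 0.13 (SE, adjusted p = 0.0016), 1.65-fold. The response at 24 h was smaller with CsA, at -0.78 ± 0.18 (SE, adjusted p = 0.0158) in the test of the interaction, a call kept in all 12 fits that left out 1 library. The same test at 2 h gave -0.86 (95% interval -1.25 to -0.48, adjusted p = 0.0764), and passed with DESeq2 (adjusted p = 0.00265) and when only the groups compared were fitted (0.0465).

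**Figure D2:**
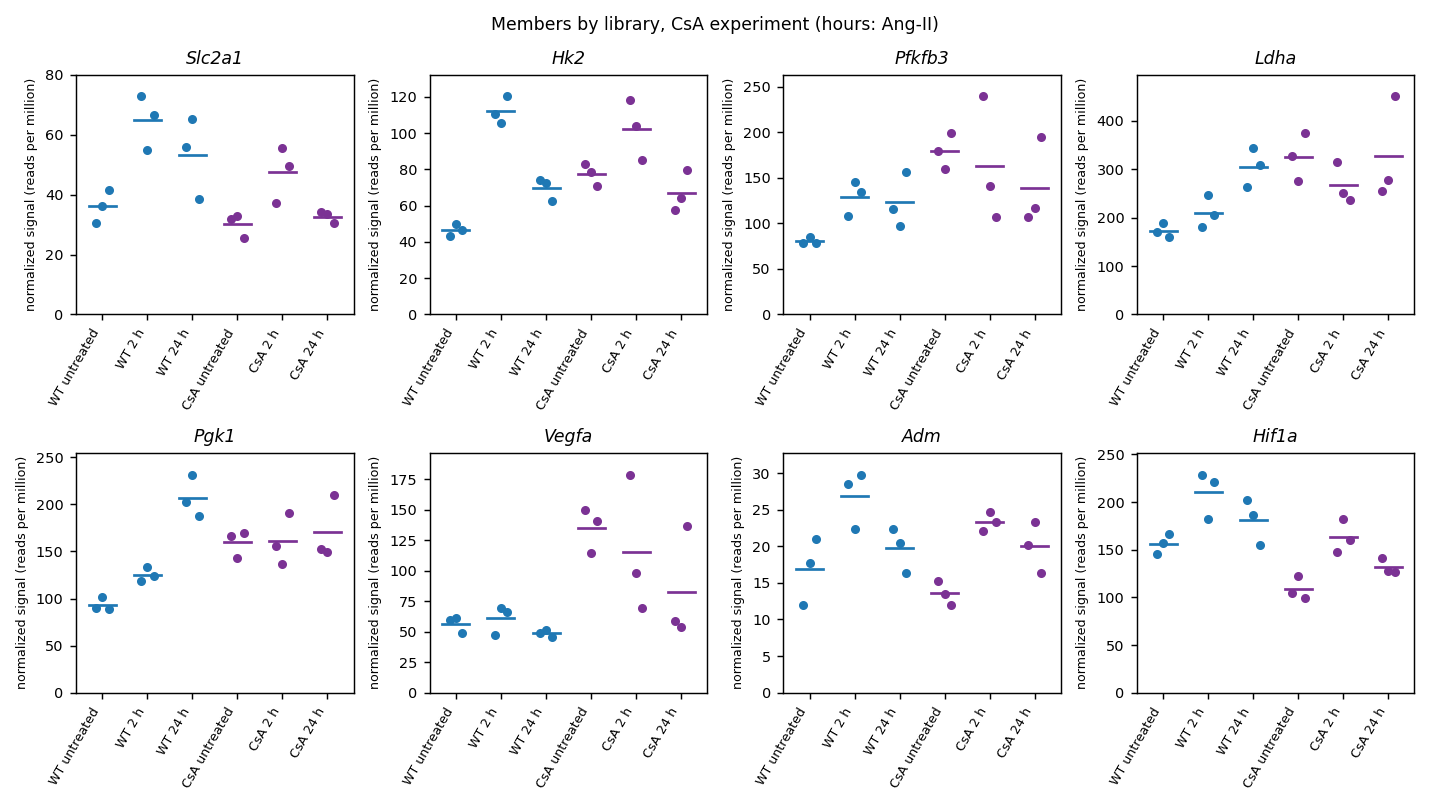
Normalized signal (close to RPM) of the 8 genes in each of the 18 libraries of the CsA experiment, WT in blue and CsA in purple, by hours of Ang-II, where a point is a library and a line a group mean. Hk2, Pfkfb3, Ldha, Pgk1 and Vegfa are higher in the 3 untreated CsA libraries than in the 3 untreated WT libraries.

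Within glycolysis itself, Pgk1 and Ldha rose in WT aortas by 24 h, and under CsA, whose untreated libraries were higher, neither passed at any time. Pgk1 (phosphoglycerate kinase, ENSMUSG00000062070, chrX:106187100-106203699, plus strand) stood at 89.7, 102 and 89.3 in untreated WT libraries, 119, 133 and 124 at 2 h and 202, 232 and 187 at 24 h. In CsA libraries it stood at 167, 143 and 169.5 untreated, 155, 136 and 191 at 2 h and 153, 149 and 210.3 at 24 h. The 3 WT groups did not overlap one another, and the 3 CsA groups did. The WT difference was 0.42 ± 0.14 (SE, adjusted p = 0.0383) at 2 h and 1.14 ± 0.14 (SE, adjusted p = 1.68e-05) at 24 h, 2.20-fold. From 2 h to 24 h it was 0.72 ± 0.14 (SE, adjusted p = 0.00079). The 2 h call was kept only without WT untreated replicate 2 among the 6 fits that left out 1 library (up to 0.115 in the others) and was not made after quantile normalization (0.409). In CsA the differences from untreated were -0.0006 (95% interval -0.29 to 0.29, adjusted p = 0.998) at 2 h and 0.08 (95% interval -0.21 to 0.37, adjusted p = 0.741) at 24 h. Untreated Pgk1 was higher with CsA by 0.77 ± 0.14 (SE, adjusted p = 0.00173), 1.70-fold, and the 24 h response was smaller with CsA, at -1.06 ± 0.19 (SE, adjusted p = 0.00655), both kept in every fit that left out 1 library.

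The genotype experiment gave a similar split for Pgk1 at 24 h. It measured 120.5 and 143 in untreated Cn-Ctl libraries, 178, 146 and 192 at 2 h, 191, 176 and 188 at 6 h and 217 and 294 at 24 h. In SM-Cn-/- it measured 200.3, 129 and 158 untreated, 148, 153 and 119.8 at 2 h, 132, 115 and 104 at 6 h and 152, 166 and 130.4 at 24 h. Both Cn-Ctl libraries at 24 h were above every other library of the experiment. The Cn-Ctl difference at 24 h was 0.94 ± 0.21 (SE, adjusted p = 0.0108), 1.92-fold, and the SM-Cn-/- difference was -0.11 (95% interval -0.47 to 0.26, adjusted p = 0.88). The Cn-Ctl call was lost without untreated replicate 2 or 24 h replicate 3 (adjusted p up to 0.19). At 24 h SM-Cn-/- was lower, at -0.76 ± 0.20 (SE, adjusted p = 0.0239), 0.589 times the Cn-Ctl level, a call lost without SM-Cn-/- 24 h replicate 1 or 3 or Cn-Ctl 24 h replicate 3 (up to 0.381). Averaged over the times SM-Cn-/- was lower, at -0.36 ± 0.09 (SE, adjusted p = 0.0134), lost only without Cn-Ctl 24 h replicate 3 or untreated replicate 3 (up to 0.0534). The interaction at 24 h was -1.05 (95% interval -1.62 to -0.48, adjusted p = 0.09) and did not pass, though it did with DESeq2 (0.00818) and without Cn-Ctl 24 h replicate 2 (0.0274).

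Ldha (lactate dehydrogenase A, ENSMUSG00000063229, chr7:46841475-46855627, plus strand) also rose in WT aortas by 24 h, and was also higher in untreated CsA than in untreated WT libraries. It stood at 170.1, 189 and 160.1 in untreated WT libraries, 179.8, 246 and 205 at 2 h and 264, 343 and 308 at 24 h. In CsA libraries it stood at 326, 275 and 374 untreated, 315, 251 and 237 at 2 h and 255, 277 and 450.3 at 24 h. The WT libraries at 24 h were above all WT libraries of the earlier times, and CsA 24 h replicate 3 was the highest of the 18. Ldha rose in WT by 0.81 ± 0.19 (SE, adjusted p = 0.00349) at 24 h, 1.75-fold, and by 0.54 ± 0.19 (SE, adjusted p = 0.035) from 2 h to 24 h, the latter lost without WT 2 h replicate 1 or 3 or WT 24 h replicate 2 or 3 (up to 0.138). In CsA it was -0.03 (95% interval -0.43 to 0.38, adjusted p = 0.95) at 24 h. Untreated CsA was higher than untreated WT by 0.90 ± 0.19 (SE, adjusted p = 0.0038), 1.86-fold, and the interaction at 24 h, -0.84 (95% interval -1.40 to -0.27, adjusted p = 0.0602), passed only without CsA 24 h replicate 3 (adjusted p = 0.00413) and with DESeq2 (0.0311). In the genotype experiment Ldha measured 193 and 235 untreated, 193, 219 and 276 at 2 h, 300.5, 217 and 231 at 6 h and 287 and 386 at 24 h in Cn-Ctl. In SM-Cn-/- it measured 341, 193 and 278 untreated, 197, 180.3 and 196 at 2 h, 229, 206 and 270.5 at 6 h and 240.4, 341 and 242 at 24 h. Over these libraries Ldha lay between 180.3 and 386, every group overlapped the next in the order of means, and none of the comparisons passed (at 24 h the log2 difference from untreated was 0.64 in Cn-Ctl, 95% interval 0.12 to 1.17). The annotation names 2 pseudogenes of Ldha and 3 of Pgk1, so reads that such copies share could be split between them, and both genes' levels are uncertain to that extent.

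Pfkfb3 (the kinase that makes fructose-2,6-bisphosphate, ENSMUSG00000026773, chr2:11471433-11554077, minus strand) did not pass against untreated at any time by limma over all groups, while it differed between the arms. It measured 78.3, 84.9 and 78.4 in untreated WT libraries and 179, 159.6 and 199.8 in untreated CsA libraries, with no overlap. The log2 difference was 1.15 ± 0.26 (SE, adjusted p = 0.00528), 2.21-fold, and averaged over the 3 times it was 0.52 ± 0.15 (SE, adjusted p = 0.0161). WT libraries at 2 h stood at 108, 146 and 134, all above untreated, with a difference of 0.67 (95% interval 0.12 to 1.22, adjusted p = 0.0776) that passed with DESeq2 (adjusted p = 0.037) and when only the groups compared were fitted (0.00539). At 24 h they stood at 116, 97.0 and 157, a difference of 0.58 (95% interval 0.04 to 1.13, adjusted p = 0.092) that passed with DESeq2 (0.0444) and when only the groups compared were fitted (0.0155). CsA libraries at 2 h stood at 239.6, 141 and 107 and at 24 h at 107, 117 and 194, so that 1 library of each group was far above the others. In the genotype experiment untreated SM-Cn-/- libraries measured 158, 79.7 and 183 against 89.4 and 104 in Cn-Ctl, and the 2 h libraries 124, 129 and 105 against 84.0, 87.1 and 79.4. At 6 h they measured 144, 90.5 and 119.5 against 110.5, 71.6 and 60.6, and at 24 h 117, 134 and 129.5 against 94.0 and 86.8. The genotypes overlapped untreated and at 6 h but not at 2 h or 24 h. Averaged over the 4 times SM-Cn-/- was higher by 0.50 ± 0.13 (SE, adjusted p = 0.0129), 1.42-fold, and that call was kept in all 22 fits that left out 1 library. The r of Pfkfb3 with the summed markers of endothelium, over the 18 libraries of the second and the 22 of the first experiment, was 0.73 and 0.53, and with those of smooth muscle -0.65 and -0.55. The endothelial sum was 356 to 611 in untreated WT and 912 to 1065 in untreated CsA libraries, and the part of these markers in the Pfkfb3 results was not tested.

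Vegfa and Adm, the secreted products, parted from each other. Vegfa, the main growth factor of blood vessels (ENSMUSG00000023951, chr17:46016993-46032369, minus strand), did not pass against untreated at any time in any arm by limma, but was higher with CsA. It stood at 59.9, 60.8 and 48.8 in untreated WT libraries, 47.0, 69.7 and 66.2 at 2 h and 49.3, 51.6 and 46.1 at 24 h. In CsA libraries it stood at 150.0, 114 and 141 untreated, 179, 98.0 and 69.3 at 2 h and 58.5, 53.5 and 136 at 24 h. Each untreated CsA library was above every WT library of the experiment. The untreated difference was 1.25 ± 0.32 (SE, adjusted p = 0.0109), 2.37-fold, and the average over the 3 times was 0.90 ± 0.19 (SE, adjusted p = 0.00257), 1.86-fold. At 2 h and 24 h alone, CsA minus WT was 0.82 (95% interval 0.14 to 1.50, adjusted p = 0.186) and 0.62 (95% interval -0.06 to 1.30, adjusted p = 0.253). In the genotype experiment Vegfa measured 34.1 and 50.6 in untreated Cn-Ctl and 101, 37.6 and 81.6 in untreated SM-Cn-/- libraries. After 2, 6 and 24 h of Ang-II it measured 31.6, 34.1 and 24.4, then 64.0, 33.6 and 47.5, then 24.8 and 51.9 in Cn-Ctl. In SM-Cn-/- it measured 32.5, 28.6 and 25.3, then 48.1, 44.9 and 33.8, then 52.1, 71.0 and 72.0. The genotypes overlapped at every one of these times except 24 h, where the lowest SM-Cn-/- library, 52.1, was just above the highest Cn-Ctl library, 51.9. In SM-Cn-/- at 2 h, where all 3 libraries were below the 3 untreated ones, the difference from untreated was -1.23 (95% interval -1.89 to -0.57, adjusted p = 0.0651), 0.427 times the untreated level. It passed with DESeq2 (adjusted p = 0.0024), edgeR (0.036) and the replicate block (0.0312), and without untreated replicate 2 (0.00595). The adipose sum described next was 790.5 to 3801 in these untreated and 788 to 1407 in these 2 h libraries. In CsA at 24 h the difference from untreated was -0.83 (95% interval -1.51 to -0.15, adjusted p = 0.116) and passed only without CsA 24 h replicate 3 (0.00955). The difference between 24 h and 2 h in SM-Cn-/- passed, at 1.15 ± 0.32 (SE, adjusted p = 0.045), but was lost when any of its 6 libraries was left out (0.058 to 0.176).

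Vegfa varied with the signal from fat. The sum of 6 markers of adipose tissue (Adipoq, Plin1, Cidec, Fabp4, Cidea, Ucp1) was 3801, 790.5 and 2875 in the 3 untreated SM-Cn-/- libraries, in the order in which Vegfa is given above. It was 4226, 2151 and 1521 in the CsA libraries at 2 h and 1756, 2107 and 4753 at 24 h. In each of these 3 groups the highest Vegfa library was also the highest for the adipose sum, as in 10 of the 14 groups in all. It was not in SM-Cn-/- at 6 h and 24 h, WT at 24 h and untreated CsA, and in SM-Cn-/- at 24 h the library with the highest Vegfa, 72.0, had the lowest sum, 2235. The sum was 542 to 1047 in untreated WT and 2623 to 4111 in untreated CsA libraries, with all 6 markers called higher (log2 differences 1.89 to 2.50). Pearson's r between log2 Vegfa and the log2 adipose sum was 0.86 and 0.85 over the 18 and the 22 libraries, given as a description with no p, since libraries share groups and every gene's value is scaled by its library. The same r was 0.89 and 0.58 for Pfkfb3, 0.85 and 0.73 for Ldha, 0.56 and 0.23 for Pgk1, 0.39 and -0.08 for Hk2 and -0.50 and -0.30 for Slc2a1. It was -0.32 and -0.10 for Adm and -0.66 and -0.51 for Hif1a. The part of these markers in the results was not tested, and in bulk tissue a change in the number of cells of a type and a change in RNA per cell cannot be told apart.

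**Figure D3:**
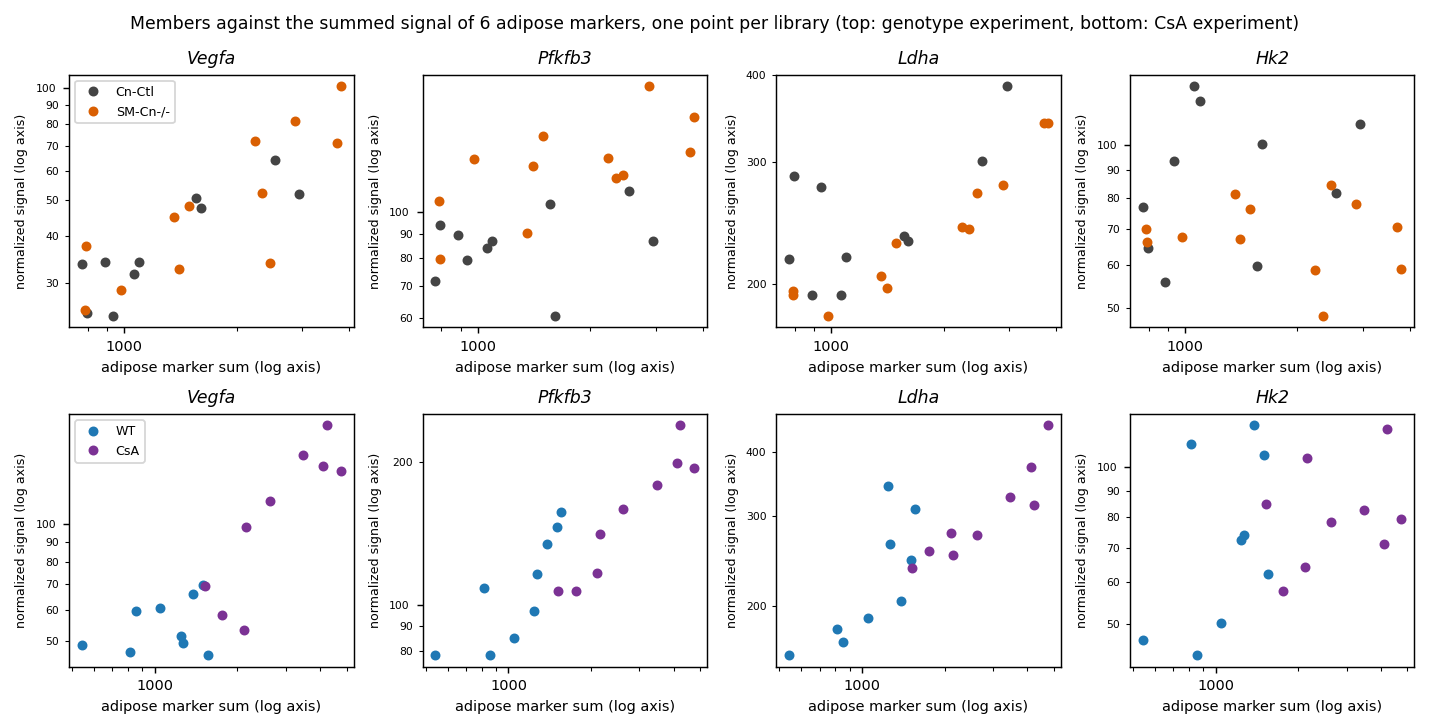
Normalized signal of Vegfa, Pfkfb3, Ldha and Hk2 against the summed signal of 6 adipose markers, both axes logarithmic, with 1 point per library, the 22 libraries of the genotype experiment above and the 18 of the CsA experiment below. Vegfa is higher where the adipose sum is higher in both rows (r = 0.85 above and 0.86 below), and Hk2 is scattered.

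Adm (adrenomedullin, a peptide that dilates vessels, ENSMUSG00000030790, chr7:110627661-110629820, plus strand) was called higher at 2 h in WT and CsA aortas and at 24 h in SM-Cn-/- aortas. In SM-Cn-/- it measured 11.9, 13.4 and 7.08 untreated, 29.1, 26.4 and 22.7 at 2 h, 39.2, 34.9 and 23.1 at 6 h and 48.8, 43.8 and 34.4 at 24 h. In Cn-Ctl it measured 9.54 and 12.5 untreated, 16.9, 31.1 and 28.7 at 2 h, 19.6, 22.9 and 5.49 at 6 h and 23.4 and 6.08 at 24 h. Every treated SM-Cn-/- library was above every untreated one, whereas Cn-Ctl at 6 h and 24 h each had a library below both untreated ones (17 and 23 reads behind them, the fewest of any member). All Cn-Ctl libraries at 2 h were above both untreated ones. Against untreated, Adm at 2 h gave 1.14 (95% interval 0.11 to 2.18, adjusted p = 0.215) in Cn-Ctl. It gave 1.275 (95% interval 0.35 to 2.20, adjusted p = 0.203) in SM-Cn-/-, and neither passed. The 24 h difference was 1.96 ± 0.45 (SE, adjusted p = 0.0388) in SM-Cn-/-, 3.88-fold, and 0.13 (95% interval -1.001 to 1.27, adjusted p = 0.924) in Cn-Ctl. The first of these was lost when any of its 6 libraries was left out (adjusted p 0.0676 to 0.183). At 24 h SM-Cn-/- was higher by 1.76 ± 0.50 (SE, adjusted p = 0.0434), 3.38-fold, a call kept only without Cn-Ctl 24 h replicate 2 among the 5 fits that left out 1 library (up to 0.685 in the others) and not made by edgeR. The interaction at 24 h, 1.82 (95% interval 0.36 to 3.29, adjusted p = 0.305), did not pass, and passed only without Cn-Ctl 24 h replicate 2 (0.041). Averaged over times the difference was 0.74 ± 0.24 (SE, adjusted p = 0.0475), kept in 5 of 22 fits that left out 1 library (without SM-Cn-/- untreated replicate 3 or 6 h replicate 3, or Cn-Ctl 6 h replicate 1 or 2 or 24 h replicate 2) and up to 0.185 in the others. Summed endothelial markers (Pecam1, Cdh5, Vwf, Tie1, Tek, Emcn) were 443 to 477 in Cn-Ctl and 1101 to 1161 in SM-Cn-/- at 24 h, with 3 of the 6 called higher there and 4 of the 6 averaged over times. The r of Adm with the endothelial sum was -0.33 and 0.66 over the 18 and the 22 libraries. It was -0.51 and 0.68 with the summed markers of adventitial fibroblasts and 0.10 and 0.66 with those of blood. The low-Adm Cn-Ctl libraries, 6 h replicate 3 and 24 h replicate 3, had the lowest sums of their groups for both, 1086 and 1029.9 for fibroblasts and 69.7 and 143 for blood. At 24 h the sums in SM-Cn-/- were 1173 to 1879.8 for fibroblasts and 503 to 2255 for blood. The part of these markers in the Adm results was not tested.

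In the second experiment Adm stood at 12.04, 17.8 and 20.9 in untreated WT and 28.6, 22.4 and 29.8 in WT libraries at 2 h. It stood at 15.2, 13.5 and 11.99 in untreated CsA and 22.1, 24.6 and 23.4 in CsA libraries at 2 h. Neither arm's groups overlapped. The rise was 0.68 ± 0.18 (SE, adjusted p = 0.0145) in WT and 0.77 ± 0.18 (SE, adjusted p = 0.00876) in CsA, 1.60 and 1.70-fold, and the difference between the responses was 0.09 (95% interval -0.46 to 0.64). The WT call was lost without WT untreated replicate 1 or WT 2 h replicate 1 or 3 (up to 0.0871), and the CsA call was kept in all 6 fits that left out 1 library. At 24 h the libraries stood at 22.4, 20.5 and 16.3 in WT and 20.2, 23.4 and 16.4 in CsA, and neither difference from untreated passed. It was 0.24 (95% interval -0.15 to 0.63, adjusted p = 0.345) in WT and 0.54 (95% interval 0.15 to 0.93, adjusted p = 0.0798) in CsA.

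Hif1a (ENSMUSG00000021109, chr12:73901375-73947530, plus strand) was called higher at 2 h in both arms of the second experiment and, averaged over times, was lower in SM-Cn-/- and in CsA aortas than in their controls. It stood at 146, 157 and 166 in untreated WT libraries, 229, 182 and 221 at 2 h and 202, 186 and 155 at 24 h. In CsA libraries it stood at 105, 123 and 98.9 untreated, 148, 182 and 159.9 at 2 h and 142, 128 and 127 at 24 h. The arms did not overlap untreated or at 24 h, and at 2 h the highest CsA library just reached the lowest WT library. The rise at 2 h was 0.42 ± 0.12 (SE, adjusted p = 0.0174) in WT and 0.58 ± 0.12 (SE, adjusted p = 0.00333) in CsA, 1.34 and 1.50-fold. The WT call was lost without WT untreated replicate 1 or WT 2 h replicate 1 or 3 (up to 0.0836) and after quantile normalization (0.253). CsA was lower than WT untreated, at -0.52 ± 0.12 (SE, adjusted p = 0.00542), at 24 h at -0.45 ± 0.12 (SE, adjusted p = 0.0382) and averaged over the 3 times at -0.45 ± 0.07 (SE, adjusted p = 0.000595). The first and last held in every fit that left out 1 library, and the 24 h call was kept only without WT 24 h replicate 3 (up to 0.162 in the others).

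In the genotype experiment Hif1a measured 123 and 105 untreated, 167, 162 and 261 at 2 h, 129.9, 160.3 and 70.4 at 6 h and 104 and 126 at 24 h in Cn-Ctl. In SM-Cn-/- it measured 79.4, 97.1 and 80.5 untreated, 168, 152 and 89.3 at 2 h, 95.4, 77.9 and 58.1 at 6 h and 83.9, 75.5 and 50.6 at 24 h. The genotypes did not overlap untreated or at 24 h and overlapped at 2 h and 6 h. Against untreated, Hif1a at 2 h gave 0.75 (95% interval 0.098 to 1.41, adjusted p = 0.189) in Cn-Ctl. It gave 0.62 (95% interval 0.03 to 1.21, adjusted p = 0.355) in SM-Cn-/-, and neither passed. Averaged over times SM-Cn-/- was lower, at -0.57 ± 0.15 (SE, adjusted p = 0.0146), 0.673 times the Cn-Ctl level, in all 22 fits that left out 1 library, although no single time passed. The difference was -0.41 (95% interval -1.07 to 0.24, adjusted p = 0.983) untreated and -0.74 (95% interval -1.40 to -0.08, adjusted p = 0.215) at 24 h. The summed smooth muscle markers were also lower. They summed to 24805 to 34010.5 in untreated WT and 15675 to 17718 in untreated CsA libraries, with 5 of 5 called. They summed to 27742 to 28205 in untreated Cn-Ctl and 20202 to 23626 in untreated SM-Cn-/- libraries, with 2 of 5 called in the average over times. Their r with Hif1a was 0.81 and 0.34 over the 18 and the 22 libraries, and their part in the result was not tested.

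Counted together, every member that limma called against untreated was higher after Ang-II, in each arm. The comparisons of 1 arm share its untreated libraries. In Cn-Ctl 2 of 8 were called at 2 h (Slc2a1, Hk2), 1 at 6 h (Slc2a1) and 2 at 24 h (Slc2a1, Pgk1), all higher, against 6.23%, 3.97% and 5.62% of all genes tested. In WT 5 of 8 were called at 2 h (Slc2a1, Hk2, Pgk1, Adm, Hif1a) and 4 at 24 h (Slc2a1, Hk2, Ldha, Pgk1), all higher, against 21.4% and 35%. In CsA 4 of 8 were called at 2 h (Slc2a1, Hk2, Adm, Hif1a), all higher, against 20.1%. From 2 h to 24 h, 3 of 8 were called in WT and 1 in CsA, against 36.2% and 18%, so that the share of members in WT was near the background. In WT these were Ldha and Pgk1, higher, and Hk2, lower, and in CsA Hk2, lower. In SM-Cn-/- 1 of 8 was called at 24 h (Adm), against 0.79%, and 1 from 2 h to 24 h (Vegfa, higher), against 3.65%.

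In 4 of these comparisons limma called none of the 8. The shares of all genes given here and below are those of limma. DESeq2 called 1.07 to 16.1 times as many genes over the 28 comparisons, so its calls cannot be set against these shares. In SM-Cn-/- at 2 h and at 6 h, where 1.13% and 2.34% of all genes were called, 4 and 3 members had an unadjusted p under 0.05, and edgeR and DESeq2 each called 1 (Vegfa, lower, at 2 h and Adm, higher, at 6 h). In Cn-Ctl from 2 h to 24 h, with 7.37% called, 3 had an unadjusted p under 0.05, edgeR called 0 and DESeq2 1 (Pgk1). In CsA at 24 h, with 8.97% called, 3 had an unadjusted p under 0.05, edgeR called 0 and DESeq2 1 (Adm). No library is shared between arms, and the 8 had a median log2 difference at 2 h of 0.57 for Cn-Ctl, -0.06 for SM-Cn-/-, 0.55 for WT and 0.20 for CsA, beside a median over all genes of 0.01, -0.01, 0.02 and -0.02.

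**Figure D4:**
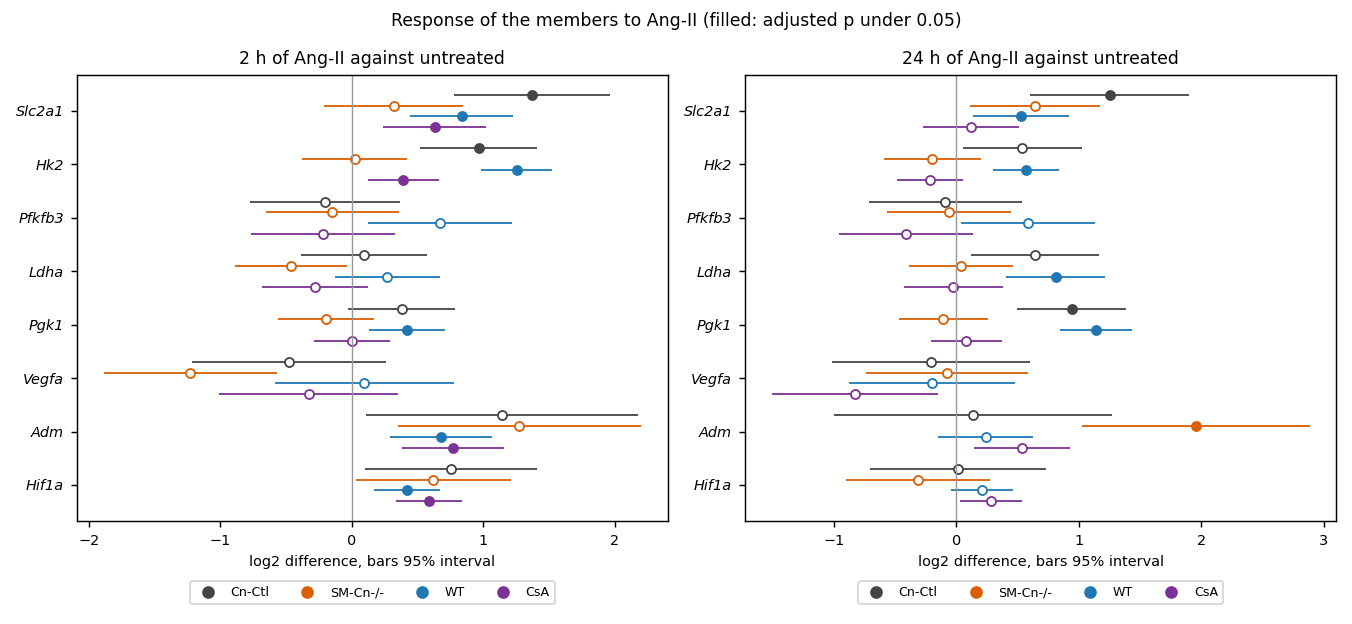
Log2 difference from untreated of the 8 genes after 2 h (left) and 24 h (right) of Ang-II in 4 arms, with bars for the 95% interval and filled points for an adjusted p under 0.05. Slc2a1 and Hk2 at 2 h are at 1.37 and 0.97 in Cn-Ctl and at 0.32 and 0.02 in SM-Cn-/-.

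Between the arms, most members were called in untreated aortas with CsA and in the averages over times. CsA against WT called 6 of 8 untreated (Hk2, Pfkfb3, Ldha, Pgk1 and Vegfa higher, Hif1a lower), against 25.2% of all genes, and 2 at 24 h (Slc2a1 and Hif1a lower), against 5.57%. The average over the 3 times called 6 (Pfkfb3, Ldha, Pgk1 and Vegfa higher, Slc2a1 and Hif1a lower), against 29%. At 2 h none was called, with 1.33% of all genes called, although 4 had an unadjusted p under 0.05, edgeR called 0 and DESeq2 1 (Hif1a, lower). Untreated, SM-Cn-/- against Cn-Ctl called none, as did edgeR and DESeq2, with 0 members under an unadjusted p of 0.05 and 0.0139% of all genes called. It called 2 at 2 h (Slc2a1 and Hk2 lower, 3.7% of all genes) and 2 at 24 h (Adm higher and Pgk1 lower, 4.94%). It called none at 6 h (1.98%), where 4 had an unadjusted p under 0.05, edgeR called 0 and DESeq2 1 (Pgk1, lower). The average over the 4 times called 5 (Pfkfb3 and Adm higher, Slc2a1, Pgk1 and Hif1a lower, 11.1%).

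Untreated CsA libraries differed from untreated WT libraries in cell type markers as well. Beside the adipose markers, 6 of 6 endothelial and 5 of 5 macrophage markers (Cd68, Adgre1, Csf1r, Lyz2, Cd14) were called higher and 5 of 5 smooth muscle markers lower. Their sums were 356 to 611 and 912 to 1065 for endothelium, and 67.2 to 101 and 175 to 261 for macrophages, in WT and CsA. The 5 adventitial fibroblast markers (Pdgfra, Dcn, Lum, Pi16, Dpt), the 3 skeletal muscle markers listed (Acta1, Ckm, Tnnt3) and the 5 blood markers (Hba-a1, Hba-a2, Hbb-bs, Hbb-bt, Alas2) did not pass with limma, edgeR or DESeq2, with 0 under an unadjusted p of 0.05. No defining marker of fat, endothelium or macrophages was at 0 reads over a whole group. In WT at 24 h, beside the rise of Pgk1 and Ldha, 5 of 5 macrophage markers were called higher and their sum was 67.2 to 101 untreated and 162 to 250.4 at 24 h. In Cn-Ctl at 24 h the sum was 145 to 223 against 64.3 to 93.6 untreated, and limma and edgeR called none of the 5, DESeq2 1, with 4 under an unadjusted p of 0.05. Other lists moved too. In WT at 24 h limma called 2 of 6 endothelial, 2 of 5 fibroblast and 2 of 6 adipose markers higher (adipose 0 with edgeR). It called 2 of 5 smooth muscle markers lower, with 35% of all genes called. In Cn-Ctl at 24 h 1 of 5 smooth muscle and 1 of 5 fibroblast markers were called higher. The part of these lists in the members' results was not tested.

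**Figure D5:**
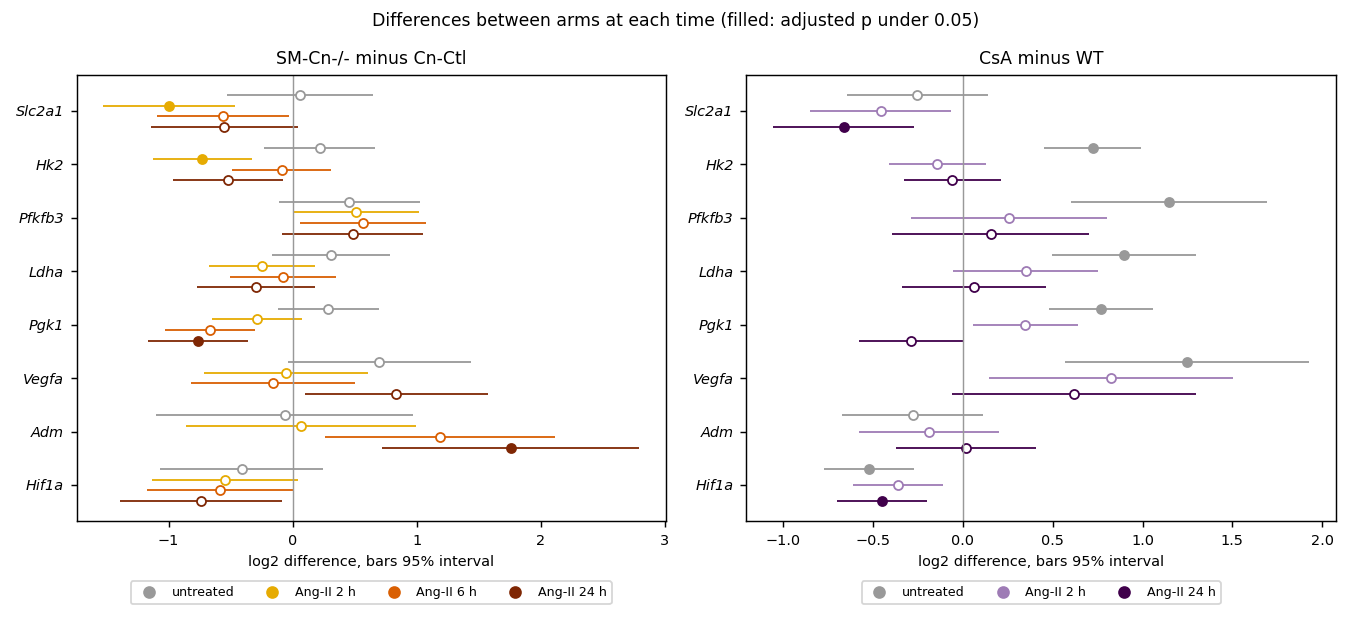
Log2 difference of the 8 genes between arms at each time, SM-Cn-/- minus Cn-Ctl on the left and CsA minus WT on the right, with bars for the 95% interval and filled points for an adjusted p under 0.05. With CsA 5 genes are higher and Hif1a lower in untreated aortas, and in SM-Cn-/- Slc2a1 and Hk2 are lower at 2 h, Pgk1 is lower and Adm higher at 24 h.

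The responses themselves differed by the interaction test in the second experiment at 24 h, where 2 of 8 were called (Hk2 and Pgk1, both smaller with CsA), against 9.42% of all genes. At 2 h none was called there, with 0.146% of all genes called, 3 members under an unadjusted p of 0.05, edgeR calling 0 and DESeq2 1 (Hk2). For the genotype, none was called at 2, 6 or 24 h, with 0.513%, 0.0624% and 0.513% of all genes called. In those tests 3, 1 and 3 members had an unadjusted p under 0.05, edgeR called 0 and DESeq2 called 0, 0 and 1 (Pgk1 at 24 h). Where one genotype passed against untreated and the other did not, a difference between their responses was therefore not shown by limma for any of the 8 genes.

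Around the 8 members, 70 other genes of 6 pathway groups were followed, of which 67 and 66 were measured. The glucose and lactate transporters were called in WT at 2 h for Slc16a1 (the lactate transporter MCT1), at 1.15 ± 0.26 (SE, adjusted p = 0.00426), and for Slc16a3 (MCT4), at 0.57 ± 0.15 (SE, adjusted p = 0.00958), and the glucose transporter gene Slc2a8 was lower, at -0.67 ± 0.15 (SE, adjusted p = 0.00431), 3 of 6 against 21.4% of all genes. Of the 15 further glycolytic enzymes, limma called none in Cn-Ctl or WT at 2 h, where 2 and 1 had an unadjusted p under 0.05, edgeR called 0 and 0 and DESeq2 1 lower and 1 higher. In WT at 24 h 4 were higher and 3 lower, against 35% of all genes called, among them Gapdh at 0.52, Pkm at 0.41 and Pfkm at -1.04. In untreated CsA against WT, the test called 7 higher and 1 lower of 15, against 25.2% of all genes, with Eno1 at 0.64, Aldoa at 0.55 and Ldhb at 0.86. The regulators of glycolytic flux were called there for 4 higher and 1 lower of 11, against the same share of all genes, including Pdk4, a kinase that turns off pyruvate dehydrogenase, at 1.80. The list of 9 genes of the HIF pathway itself was called 1 higher (Hif3a, 0.91) in WT at 2 h, and 2 lower (Egln1, -0.42, and Egln3, -0.86, oxygen-sensing prolyl hydroxylases) in CsA at 2 h, where 21.4% and 20.1% of all genes were called.

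Among the other HIF targets, 14 of 16 were measured. P4ha1 and P4ha2, subunits of the enzyme that hydroxylates collagen, and Ddit4, an inhibitor of mTOR, were called higher at 2 h in Cn-Ctl (1.76, 1.74 and 1.36), WT (1.20, 1.08 and 1.96) and CsA (0.92, 1.02 and 0.79). SM-Cn-/- aortas also had calls in this list against untreated, with the genes not named here. Limma called 1 of 14 higher at 2 h (edgeR 1, DESeq2 2) and 3 at 6 h, where 1.13% and 2.34% of all genes were called. At 2 h P4ha1 was lower in SM-Cn-/- than in Cn-Ctl, at -1.42 ± 0.23 (SE, adjusted p = 0.000541), and P4ha2, at -0.84 ± 0.16 (SE, adjusted p = 0.00263). Of the VEGF and adrenomedullin signalling genes, Pgf (placental growth factor, a ligand of the VEGF receptor Flt1) went from between 6.30 and 6.48 in untreated Cn-Ctl to between 73.4 and 103 at 2 h, a difference of 3.74 ± 0.44 (SE, adjusted p = 8.11e-06). It was 3.05 ± 0.24 (SE, adjusted p = 5.56e-07) in WT and 2.16 ± 0.24 (SE, adjusted p = 3.47e-05) in CsA, and lower in SM-Cn-/- than in Cn-Ctl at 2 h, at -2.31 ± 0.40 (SE, adjusted p = 0.00104). Against untreated in SM-Cn-/- at 2 h, limma and edgeR called 0 of 12 genes of this list. DESeq2 called 1 higher, and 3 had an unadjusted p under 0.05. In untreated CsA against WT, the VEGF receptors Flt1 and Kdr were higher at 1.33 and 1.68, in libraries with more endothelial markers. Over all 6 groups the counts were 4 higher and 1 lower of 67 in Cn-Ctl and 8 higher and 5 lower of 66 in WT at 2 h, and 23 higher and 7 lower of 66 in untreated CsA against WT, with median log2 differences of -0.001, 0.11 and 0.26 beside 0.01, 0.02 and -0.02 over all genes. Of all genes 6.23%, 21.4% and 25.2% were called there, so that the shares in Cn-Ctl and WT at 2 h were near the background. The counts were 14 higher and 13 lower of 66 in WT at 24 h and 14 higher and 5 lower of 67 in SM-Cn-/- against Cn-Ctl averaged over times, against 35% and 11.1% of all genes.

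The 8 genes did not vary as one group over the libraries. Pearson's r on the log2 scale, over the 18 libraries of the second and the 22 of the first experiment, was 0.84 and 0.62 for Ldha with Pgk1, 0.52 and 0.57 for Hk2 with Slc2a1 and 0.80 and 0.54 for Pfkfb3 with Vegfa. Hif1a had r of 0.92 and 0.31 with Slc2a1 and -0.62 and -0.55 with Vegfa. Slc2a1 and Vegfa had r of -0.49 and -0.32. Of 13435 protein-coding genes in both tables, those with the highest lower value of the 2 r were, for Slc2a1, Mafk (r = 0.91 and 0.87) and Nacc1 (r = 0.85 and 0.86), and for Hk2, the transcription factor Klf4 (r = 0.93 and 0.88) and Trib1 (r = 0.90 and 0.85). For Vegfa they were Cidea (r = 0.92 and 0.92), which is also one of the 6 adipose markers above, and the glycerol channel Aqp7 (r = 0.96 and 0.92). For Pfkfb3 they were Enpp2 (r = 0.83 and 0.88) and Acadm (r = 0.83 and 0.84), for Ldha Ppa1 (r = 0.95 and 0.83) and Sod2 (r = 0.86 and 0.81), and for Pgk1 Slc25a5 (r = 0.87 and 0.84) and Ppa1 (r = 0.80 and 0.83). For Adm they were Wasf2 (r = 0.85 and 0.78) and Stbd1 (r = 0.78 and 0.75), and for Hif1a Ccdc50 (r = 0.93 and 0.92) and Eea1 (r = 0.96 and 0.92). These r are descriptions with no p, over libraries that share groups and treatment.

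In the order of group means, Slc2a1 was highest in Cn-Ctl at 2, 24 and 6 h, and the lowest of these libraries was above every SM-Cn-/- library at 24 h, the next group. Hk2 was highest in Cn-Ctl at 2 h, and Pgk1 in Cn-Ctl at 24 h, the latter clear of its neighbour. Pfkfb3 had the means of all 4 SM-Cn-/- groups above those of all 4 Cn-Ctl groups, each group overlapping its neighbour. In the second experiment Hk2, Slc2a1, Adm and Hif1a were highest in WT at 2 h, Pgk1 in WT at 24 h, Pfkfb3 and Vegfa in untreated CsA and Ldha in CsA at 24 h, overlapping untreated CsA. Of the 7 neighbouring pairs of groups in the first experiment, 1 did not overlap for Slc2a1, Hk2, Pgk1 and Hif1a and none for the other 4 genes. Of the 5 pairs in the second, 2 did not overlap for Hk2, Pgk1 and Hif1a, 1 for Pfkfb3 and none for the rest. The share over all genes was not counted, and the groups were ordered by these same values. The counts therefore describe these libraries only.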

How the data were processed

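Polyadenylated RNA of 40 pools of 3 aortas was sequenced in 2 experiments of 22 and 18 libraries (Illumina GAIIx). Per the labels and the study's methods, the authors aligned the reads with Bowtie 0.12.7, counted them per gene with RSEM 1.16 on GRCm38 and deposited normalized values, a signal close to RPM, the reads of a gene over a scaled library size. The tool that scaled the libraries is not given in the sources used here. Each deposited signal turned back into a whole read count, (reads + 0.5) over the scaled library size, within 0.01 for 100% of values, so low values hold the counting error of those reads.

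Groups came from the labels. Each table was fitted on its own with limma 3.58.1 (R 4.3.3) on log2(value + 0.5), 1 mean per group over all groups of the table, empirical Bayes with an intensity trend, 2-sided, with Benjamini-Hochberg adjustment over protein-coding genes (GENCODE vM21 biotypes) and a threshold of 0.05. This gave 28 comparisons. The limma fit was also run on simulated reads with known changes, and the outcome is not given here. The alternatives were a pseudocount of 1, a filter of at least 5 in at least 2 libraries (no filter was applied in the reported fit), genes of every biotype, quantile normalization, no trend, only the groups compared, a replicate block, edgeR 4.0.16 and DESeq2 1.42.0 on the recovered counts, and leaving out each library. p-values measure the spread between pools, which may in part be technical. The named pathway genes are at most the 3 of smallest adjusted p in a list, and the most alike genes are ranked by the lower of 2 r over the 2 tables. Members and lists were chosen with earlier results of these data known. Promoters are from RefSeq GRCm38.p6. The labels name no sequencing or preparation batch, and the effect of one cannot be told apart from the groups.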

Additional observations from a re-analysis of the deposited data

Results flagged for a closer look

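Each gene named here passed a test of the difference between 2 responses, the change from untreated to 24 h of Ang-II with CsA against the same change in WT, in limma with Benjamini-Hochberg adjustment. Pathway genes were named only for comparisons in which a member was called. Of the members, Hk2 gave -0.78 ± 0.18 (SE, adjusted p = 0.0158) and Pgk1 -1.06 ± 0.19 (SE, adjusted p = 0.00655), both with a smaller response under CsA. In each case the untreated CsA libraries were the ones that stood higher (Hk2 82.8, 78.3 and 71.0 against 43.5, 50.1 and 46.6 in WT, Pgk1 167, 143 and 169.5 against 89.7, 102 and 89.3), and the libraries of the arms overlapped at 24 h. In the same test 4 of 6 endothelial and 3 of 5 macrophage markers were also called lower, 1 of 5 smooth muscle markers higher and 0 of 6 adipose markers, and their part in the result was not tested.

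Of the other pathway genes, the lactate transporter Slc16a1 gave -2.46 ± 0.36 (SE, adjusted p = 0.00329), Pgf -1.31 ± 0.34 (SE, adjusted p = 0.0268) and Angptl4, an inhibitor of lipoprotein lipase, -1.60 ± 0.49 (SE, adjusted p = 0.0495). In the opposite direction, Slc2a8 gave 0.78 ± 0.21 (SE, adjusted p = 0.0309), Calcrl, the receptor of adrenomedullin, 0.60 ± 0.17 (SE, adjusted p = 0.0411) and Vegfd, a growth factor of lymphatic vessels, 0.91 ± 0.21 (SE, adjusted p = 0.015). The genotype interaction, with no member called, called 1 of 14 other HIF targets at 2 h (edgeR 1, DESeq2 2). It called 1 of 12 VEGF and adrenomedullin signalling genes at 24 h (edgeR 0, DESeq2 1). Both were lower in SM-Cn-/-, with 0.513% of all genes called at each time.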

How the results depend on the processing

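Of 49 calls over 224 tests of a member, no alternative reversed a called direction. All 49 were kept with a pseudocount of 1, a filter of at least 5 and DESeq2, 47 with edgeR, 46 with every biotype, 46 with a replicate block, 41 after quantile normalization, 37 without the trend and 37 when only the groups compared were fitted. Of the 49, 26 were lost in no fit that left out 1 library, and 23 were lost in at least 1. Among differences that were not called, the sign changed in 22 tests under an alternative and in 90 fits that left out 1 library. Where 1 of 2 libraries of untreated or 24 h Cn-Ctl was left out, the other was assumed to vary like the other groups.

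The number of members called changed by over 1.5 times as follows, with the cause not tested. The share of all genes called under the same alternative is not given beside each count, and the number of all genes called also changed, as described below. Quantile normalization gave 1 for Cn-Ctl at 2 h, 1 for SM-Cn-/- at 6 h, 2 for Cn-Ctl from 2 to 24 h, 0 between genotypes at 2 h and 3 in their average, 3 for WT at 2 h and 1 for CsA at 24 h. Without the trend, 0 were called for Cn-Ctl at 6 h, SM-Cn-/- at 24 h and from 2 to 24 h, between genotypes at 2 and 24 h, and for CsA against WT at 24 h. Fitting only the groups compared gave 0 for Cn-Ctl at 6 and 24 h, 1 and 0 between genotypes at 2 and 24 h, 2 for CsA at 2 h, 0 for CsA from 2 to 24 h, 0 for CsA against WT at 24 h and 1 for the CsA interaction at 2 h. DESeq2 gave 1 for SM-Cn-/- at 2 and 6 h, Cn-Ctl from 2 to 24 h, the genotypes at 6 h and their interaction at 24 h, CsA at 24 h, CsA against WT at 2 h and the CsA interaction at 2 h, and 2 for SM-Cn-/- and CsA from 2 to 24 h. edgeR gave 1 for SM-Cn-/- at 2 and 6 h and 1 between genotypes at 24 h. With every biotype, 0 were called for SM-Cn-/- from 2 to 24 h and 1 for CsA against WT at 24 h, and a filter of at least 5 gave 1 between genotypes at 6 h.

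Leaving out each library in turn gave 0 to 2 for Cn-Ctl at 2 h, 0 to 1 at 6 h, 0 to 2 at 24 h and 0 to 2 from 2 to 24 h. It gave 0 to 1 for SM-Cn-/- at 2 h, 0 in every fit at 24 h and 0 to 1 from 2 to 24 h. It gave 0 to 2 between genotypes at 2 h, 0 to 1 at 6 h, 0 to 3 at 24 h, 3 to 6 in their average and 0 to 2 in their interaction at 24 h. In the second experiment it gave 2 to 5 for WT at 2 h, 3 to 4 at 24 h and 2 to 4 from 2 to 24 h, 2 to 3 for CsA at 2 h, 0 to 2 at 24 h and 1 to 2 from 2 to 24 h, and 0 to 2 for CsA against WT at 24 h, 6 to 7 in their average and 2 to 4 in their interaction at 24 h. In the other comparisons the count kept to its value.

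The reported fit did not treat same-numbered libraries as paired. Same-numbered libraries of different groups had a median r of deviations of 0.0587 in the first and -0.0283 in the second experiment, over 0.1 in 27 of 71 and 11 of 45 pairs. Libraries of different groups and different numbers had a median r of -0.0419 and -0.0129. A weak effect shared by same-numbered libraries of the first experiment is thus possible. With the replicate block, 1 member was called for SM-Cn-/- at 2 and at 6 h, for Cn-Ctl from 2 to 24 h and between genotypes at 6 h, 2 for SM-Cn-/- from 2 to 24 h and 0 for CsA against WT at 24 h.

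Over all genes, the number called changed by over 1.5 times in 15 of 28 comparisons with DESeq2 (1.07 to 16.1 times the limma count), 15 when only the groups compared were fitted (0 to 3.5), 9 without the trend (0 to 0.993), 5 with quantile normalization (0.05 to 3), 5 with the block (0.05 to 1.69) and 2 with edgeR (0.556 to 1.03). The share of higher calls moved most for SM-Cn-/- at 2 h (87.1% with limma, 67.3% with DESeq2), and went from 55% to 39.8% for untreated CsA against WT after quantile normalization. The median SD of log2 values within a group was 0.213 to 0.395 in the first experiment and 0.126 to 0.184 in the second, so intervals were wider in the first.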
